A study of Homo sapiens with 4 samples.

Results

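VEGFA, THBS1 and BNIP3L were followed in RWP-1 cells, an established human pancreatic cancer line, cultured without treatment (Ctrl) or treated with rGAL1. They are 3 of the 14884 named genes, meaning genes with a probe set that carries 1 symbol in the array's annotation. Each is read by 1 such probe set, a group of probes summarised into 1 value. Their probe sets are 17009093 for VEGFA, 16799315 for THBS1 and 17067170 for BNIP3L. The genes were chosen by their measured difference between rGAL1 and Ctrl, together with their known roles, so that difference is given below as a description and carries no test.

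RNA was measured on 4 single-channel oligonucleotide arrays, 2 of Ctrl cells and 2 of rGAL1 cells. The short form rGAL1 is read here as recombinant galectin-1, a lectin of the galactose-binding family that cells secrete. The labels state no dose, duration, oxygen level or vehicle. The array titled rGAL1 2 has a treatment field that reads as untreated. It is kept with rGAL1 because the series' sample count, its source name and its title place it there, and values without it are given for VEGFA, THBS1 and BNIP3L and for the listed genes and list medians named below as moving with it. Whether the arrays within a group represent separate cultures is unstated, so any p-value here measures only the spread between arrays, which may be technical. An array reads transcripts from all cells of a culture, and fewer cells of a kind cannot be told apart from less RNA per cell.

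Growth of new blood vessels is set by secreted stimulators weighed against secreted inhibitors. VEGFA, vascular endothelial growth factor A, is the main stimulator: tumour cells release it, and it acts on receptors of endothelial cells. THBS1 encodes thrombospondin-1, a large matrix glycoprotein that restrains vessel growth through receptors such as CD36 and CD47 and can activate latent TGF-beta. Under low oxygen, HIF transcription factors raise VEGFA and BNIP3L, the latter encoding a protein of the outer mitochondrial membrane that marks mitochondria for removal by autophagy. Pancreatic cancers are known for dense stroma, poor perfusion and low oxygen, and galectin-1 has been linked to vessel growth in tumours.

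The promoter of THBS1 is shown first, because THBS1 is read below beside CCN2 and ANKRD1, targets of YAP and TEAD factors and among the other listed genes with the largest differences in the same direction. Of the 3 genes, 1 (THBS1) matched the RefSeq promoter table; VEGFA and BNIP3L are named only. Each line gives the 250 bases before the annotated start, 5′ to 3′ on the gene's own strand, from RefSeq on GRCh38.p14: chr15:39580829-39581078 on the plus strand for THBS1, chr6:131951373-131951622 on the minus strand for CCN2 and chr10:90921088-90921337 on the minus strand for ANKRD1. Capitals mark GGAATG, the core that TEAD factors bind.
THBS1: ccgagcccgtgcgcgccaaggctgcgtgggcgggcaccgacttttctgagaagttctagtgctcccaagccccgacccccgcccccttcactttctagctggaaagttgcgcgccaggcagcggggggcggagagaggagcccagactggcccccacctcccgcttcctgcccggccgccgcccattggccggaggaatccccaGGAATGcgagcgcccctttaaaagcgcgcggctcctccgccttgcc
CCN2: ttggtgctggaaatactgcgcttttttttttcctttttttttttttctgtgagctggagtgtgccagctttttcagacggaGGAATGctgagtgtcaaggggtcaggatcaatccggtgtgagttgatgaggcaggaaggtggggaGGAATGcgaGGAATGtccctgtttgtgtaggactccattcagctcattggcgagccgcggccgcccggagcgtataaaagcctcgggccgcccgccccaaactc
ANKRD1: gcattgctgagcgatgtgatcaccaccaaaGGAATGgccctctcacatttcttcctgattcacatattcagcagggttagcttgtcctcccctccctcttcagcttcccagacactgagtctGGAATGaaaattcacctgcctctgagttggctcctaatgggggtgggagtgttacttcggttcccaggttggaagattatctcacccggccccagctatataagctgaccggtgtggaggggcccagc

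The THBS1 window held 1 GGAATG, the CCN2 window 3 and the ANKRD1 window 2. Searched on both strands, that core occurred in 11.9% of the 35116 windows of the same length in the table. CCN2 and ANKRD1 were taken as targets of TEAD factors with large differences in these data. The core in their windows was therefore to be foreseen and carries no test. Other genes of their list, such as AXL and SRF, were not searched one by one. The THBS1 window also held 4 copies of GGGCGG, the GC box, which 42.6% of windows hold at least once. It held 1 CCAAT (in 11240 of the windows), 1 CAGAC, a SMAD core (38.0%), and 1 GCGTG (32.2%), which is a form of the HIF core; the other form, ACGTG, was not in this window and occurred in 18.5% of windows. TATAAA was likewise not in the THBS1 window, and 10.7% of windows hold it. One match of GCGTG overlaps a match of GGGCGG by a single base. The motifs were picked with the THBS1 window in view, and a match of letters is a description of the sequence, not a bound site.

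VEGFA measured 7.25 and 7.26 on the Ctrl arrays and 7.01 and 6.91 on the rGAL1 arrays (log2 expression, arrays 1 and 2 in that order). The Ctrl arrays were nearly identical, and both rGAL1 arrays lay below them by more than the distance between the rGAL1 arrays. The means were 7.25 ± 0.0066 and 6.96 ± 0.066 (SD, n = 2), a log2 difference of -0.29 (SE 0.10 from the moderated fit), which puts the rGAL1 level at 81.7% of the Ctrl level. The SE is larger than the spread of these arrays alone because the fit draws each variance towards that of all probe sets.

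THBS1 measured 6.21 and 6.12 in Ctrl and 5.82 and 5.85 in rGAL1 (log2 expression). Here the rGAL1 arrays were the closer pair, and the groups did not overlap. The means were 6.17 ± 0.065 and 5.84 ± 0.015 (SD, n = 2), with a log2 difference of -0.33 (SE 0.10), or 79.5% of the Ctrl level.

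BNIP3L measured 7.79 and 7.87 in Ctrl and 7.55 and 7.48 in rGAL1 (log2 expression). The groups again lay apart, with arrays of a group spaced alike on either side. The means were 7.83 ± 0.054 and 7.52 ± 0.049 (SD, n = 2), with a log2 difference of -0.32 (SE 0.10), or 80.4% of the Ctrl level.

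**Figure D1:**
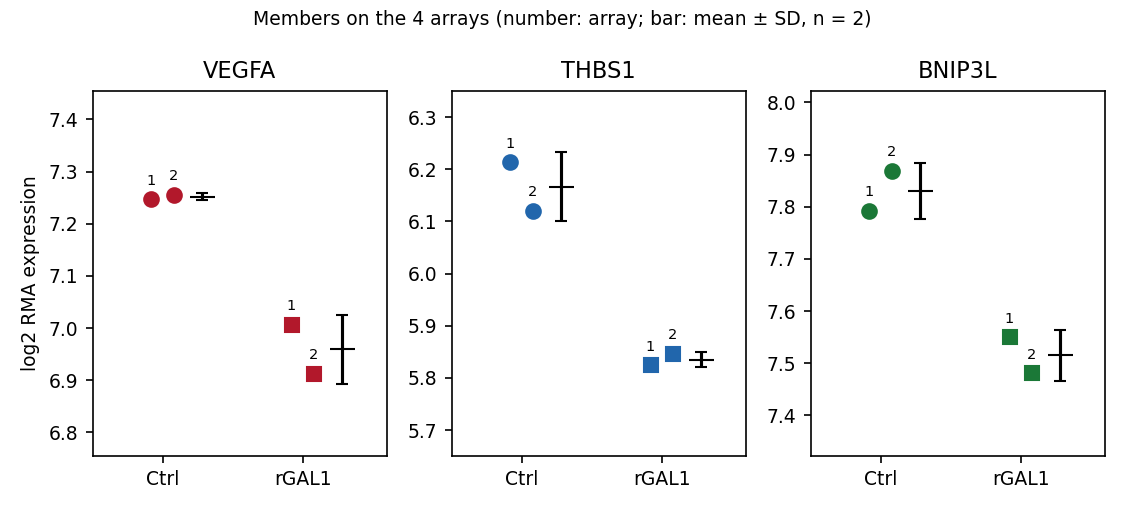
Log2 RMA expression (vertical axis, a separate range of equal height for each gene) of VEGFA, THBS1 and BNIP3L on the Ctrl arrays (circles) and rGAL1 arrays (squares), with the array number above each point and the mean ± SD (n = 2) as a black bar. For each gene the squares lie below the circles, with gaps between the groups of 0.24 for VEGFA, 0.27 for THBS1 and 0.24 for BNIP3L.

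All 3 genes had each rGAL1 value below each Ctrl value, a placement found in 17.0% of named genes. Because the genes were chosen on this contrast, nothing is read from that count. Across the whole table, 0 of 53617 probe sets passed an adjusted p under 0.05 (limma, smallest adjusted p = 0.919), a background of 0%, and none of the 3 genes passed. An unadjusted p under 0.05 (limma) was reached by 2807 probe sets, which is 5.24% of all. Lower differences than those of the members were measured in 371 of the 14884 named genes for VEGFA, 241 for THBS1 and 289 for BNIP3L. Among the 10684 named genes above the median level of all probe sets, as the members are, the counts were 151, 85 and 112. All 3 thus sat in the lower tail of small differences without being its extremes.

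The difference in VEGFA relative to THBS1 was within the spread of the arrays. Expressed as log2 VEGFA minus log2 THBS1 and centred on the Ctrl mean, which removes the brightness of each probe set, the ratio was -0.051 and 0.051 on the Ctrl arrays and 0.097 and -0.018 on the rGAL1 arrays. The groups overlapped, and the change was 0.040 (SD 0.072 in Ctrl and 0.081 in rGAL1, n = 2 each; SE 0.077), a ratio 1.03-fold higher in rGAL1. With each array left out in turn the change ran from -0.018 to 0.097, so its sign depended on the array. The stimulator and the inhibitor thus had lower means by similar amounts. Both were chosen on this contrast, so the likeness of their differences is a description and carries no test. These arrays give no direction for the ratio of their transcripts. VEGFA relative to BNIP3L differed by 0.023 (SE 0.036) and THBS1 relative to BNIP3L by -0.016 (SE 0.096).

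**Figure D2:**
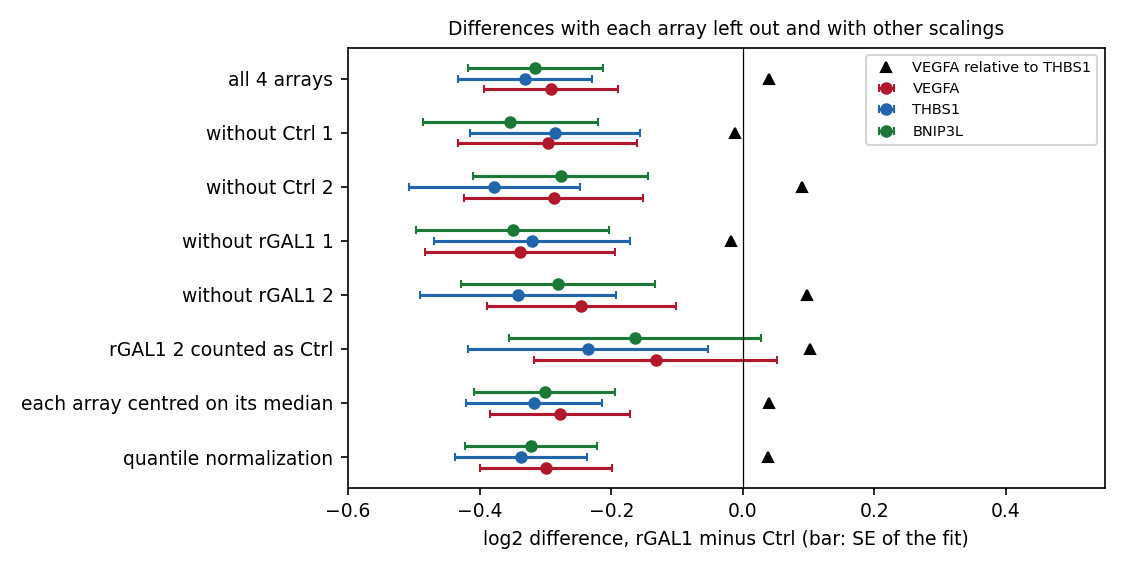
Log2 differences, rGAL1 minus Ctrl (horizontal axis), of VEGFA, THBS1 and BNIP3L (coloured points, bars are the SE of each fit) and the change of VEGFA relative to THBS1 (black triangles) with all 4 arrays, with each array left out, with rGAL1 2 counted as Ctrl, and under other scalings. The 3 genes, chosen for lying below 0, are nearest to it with rGAL1 2 counted as Ctrl (-0.13 for VEGFA), while the triangles fall on both sides of 0.

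The conflicting label matters for the size of these differences. Without rGAL1 2 the log2 difference was -0.25 for VEGFA, -0.34 for THBS1 and -0.28 for BNIP3L. With that array counted as a control, as its treatment field reads, the values were -0.13, -0.24 and -0.16, with SEs of 0.19, 0.18 and 0.19. Either way rGAL1 1 is then the only array of its group, and its spread is assumed to equal that of the controls. On all 3 genes rGAL1 2 lay close to rGAL1 1 and below both Ctrl arrays, as given above; since the genes were chosen on this contrast, that placement does not settle the label.

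Among the other angiogenic ligands, most values lay near 0. Of 25 listed besides VEGFA, 20 were named on the array; 9 had lower and 11 higher means in rGAL1, with a median log2 difference of 0.022 against 0.0056 over all named genes. In 4 of them each rGAL1 value was below each Ctrl value, and in 2 above, where the background over named genes is 17.0% for below and 20.2% for above. None had an unadjusted p under 0.05 (limma), a mark reached by 2.98% of named genes.

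VEGFB, a relative of VEGFA with a limited part in vessel growth, measured 6.63 and 6.57 in Ctrl and 6.76 and 6.54 in rGAL1 (log2 expression), with overlapping groups and a difference of 0.047, or 0.16 without rGAL1 2. VEGFC, the lymphatic growth factor, measured 5.08 and 5.22 in Ctrl against 4.97 and 5.08 in rGAL1, a log2 difference of -0.13 that was -0.056 without Ctrl 2. PGF, placental growth factor, differed by -0.16, a value carried by rGAL1 1, since it was 0.0066 without that array and -0.32 without rGAL1 2. Of these 3 relatives VEGFC alone had groups that did not overlap, its nearest values differing by less than its arrays within a group.

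EDN1, the vasoconstrictor endothelin-1, differed by -0.19 (SE 0.10) and EFNA1, a membrane-bound ligand of EPHA2, by -0.18 (SE 0.13), the latter falling to -0.052 without rGAL1 2. ANGPT2, a ligand of the endothelial receptor TEK, had log2 values of 11.60 on both Ctrl arrays and 11.66 on both rGAL1 arrays. CXCL8, a chemokine that also attracts endothelial cells, differed by 0.11 (SE 0.10; 0.054 without Ctrl 1). These differences are on the log2 scale and smaller than those of the members.

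The VEGF receptors FLT1 and KDR were dim, below the array's midpoint of 4.70 (the median of all probe sets' mean log2 values, used as the dim level). FLT1, the first VEGF receptor, differed by -0.014 and KDR, the main signalling receptor of endothelial cells, by -0.020 on the log2 scale, each changing sign when 1 array was left out. The co-receptor NRP1 was well above the dim level at 7.25 and 7.24 in Ctrl and 7.28 and 7.29 in rGAL1, a log2 difference of 0.037 (SE 0.097). Its relative NRP2 differed by 0.066, with overlapping groups, and by 0.17 without rGAL1 2. Over the 15 named receptors the median was -0.0059 (-0.035 without rGAL1 2). Of them, 1 was separated lower and 2 higher, beside 17.0% and 20.2% of all named genes. None had an unadjusted p under 0.05 (limma).

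EPHA2, an ephrin receptor common on tumour cells and the receptor of EFNA1, was the receptor separated lower, at 9.33 and 9.36 in Ctrl and 9.09 and 9.14 in rGAL1. Its log2 difference was -0.23 (SE 0.098). The receptor and its ligand thus had lower means in rGAL1, but neither passed the test.

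The other inhibitors of vessel growth had differences in both directions. Of 24 listed besides THBS1, 15 were named; 6 had both rGAL1 arrays above both Ctrl arrays and 1 had both below, beside backgrounds of 20.2% and 17.0%. Lower means were found in 6 of the 15, beside 48.3% of all named genes. The median log2 difference was 0.073, and it ran from 0.053 to 0.12 under the 9 alternatives tried. A block for the array number cannot move this median, and the other alternatives reuse the same arrays. Its kept sign therefore shows no stability. Of the 15 genes, 9 were above the dim level, and THBS2, described below, is in this list too.

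ADGRB1, a brain-enriched adhesion receptor whose extracellular part carries thrombospondin repeats, measured 5.59 and 5.68 in Ctrl and 5.88 and 6.08 in rGAL1 (log2 expression), a difference of 0.35 (SE 0.12). MMRN2, an endothelial matrix protein that binds VEGFA, differed by 0.20 (SE 0.12), and by 0.12 without rGAL1 1. CXCL10, a chemokine that restrains vessel growth, differed by 0.35 (SE 0.10) but was dim, at 2.98 in Ctrl. ADGRB1 and CXCL10 were the 2 at an unadjusted p under 0.05 (limma). Neither passed over all probe sets. TIMP2, a metalloprotease inhibitor and the brightest of the list, differed by 0.073, and by 0.0099 without Ctrl 1. VASH1, a feedback inhibitor of endothelial growth, is the 1 gene counted as below, but its probe sets conflict. The brighter (mean log2 level 5.67) gave -0.14, or -0.076 without Ctrl 1. The other (5.63) gave 0.20, with both rGAL1 arrays above both Ctrl arrays.

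Within the thrombospondin family the log2 differences pointed in both directions. THBS2, the closest relative of THBS1 and also an inhibitor, measured 4.86 and 4.98 in Ctrl and 5.07 and 5.14 in rGAL1, a difference of 0.18 (SE 0.11; 0.12 without Ctrl 1) opposite in sign to that of THBS1. THBS3 differed by -0.18 (SE 0.11) and COMP, the cartilage member of the family, by -0.21 (SE 0.10), each without overlap between groups; without rGAL1 1, THBS3 differed by -0.11. THBS4 was dim and spread widely in Ctrl, at 4.05 and 3.49, against 4.05 and 4.14 in rGAL1, so its difference of 0.32 rests on Ctrl 2 and was 0.044 without it.

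Receptors of thrombospondin-1 above the dim level had higher rather than lower means. CD47, which binds its carboxy-terminal part, measured 7.66 and 7.68 in Ctrl and 7.79 and 7.77 in rGAL1 (log2 expression), a difference of 0.11 (SE 0.097). LRP1, an endocytic receptor that clears it, differed by 0.10 (0.063 without Ctrl 1), its partner CALR by 0.12 (0.076 without rGAL1 1), and the syndecans SDC1 and SDC4, heparan sulfate carriers at the cell surface, by 0.050 and 0.17. In each of these 5 both rGAL1 arrays lay above both Ctrl arrays, a placement found in 20.2% of named genes. CD36, which binds the type 1 repeats, was dim at 3.03 in Ctrl and differed by -0.15, or by -0.075 without Ctrl 1. Of the 10 named genes in the list besides THBS1, 6 were separated higher and 3 lower, beside 20.2% and 17.0% of all named genes. Their median was 0.11, and 0 had an unadjusted p under 0.05 (limma).

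**Figure D3:**
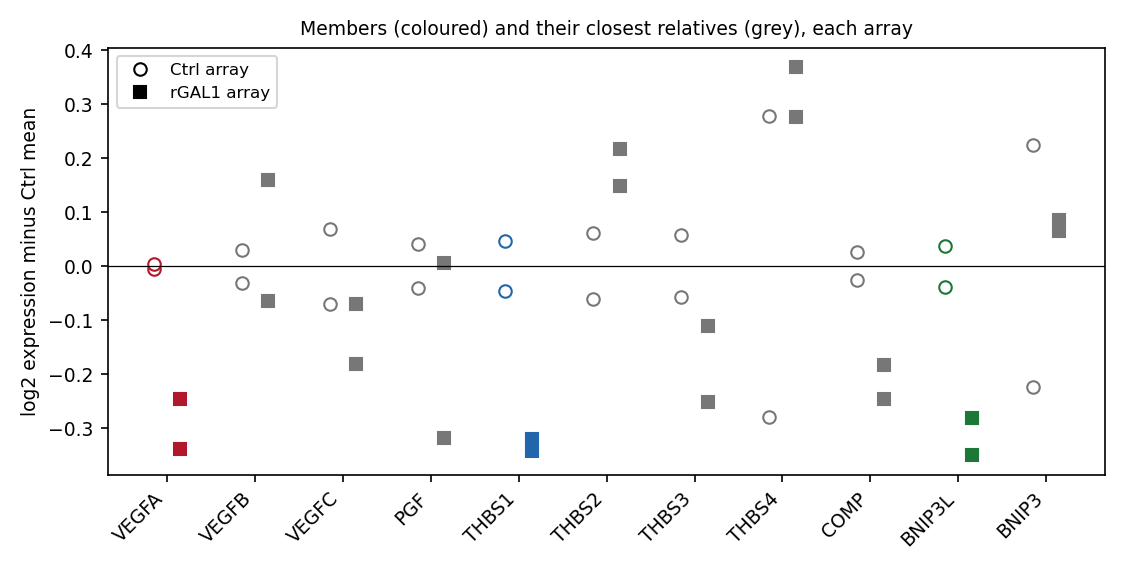
Log2 expression minus the gene's Ctrl mean (vertical axis) on each Ctrl array (open circles) and rGAL1 array (filled squares) for VEGFA, THBS1 and BNIP3L (coloured) and their relatives (grey). The squares of the 3 coloured genes lie at about the same depth below 0 and clear of their circles; THBS2 lies above 0 (difference 0.18), and BNIP3 and THBS4 have widely spaced circles, with Ctrl values of 4.32 and 3.88 for BNIP3 and 4.05 and 3.49 for THBS4.

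The wider low-oxygen list held genes with differences in both directions. Besides these 2, 27 of 49 listed hypoxia and glycolysis genes were named. In them 15 had lower and 12 higher means, and the median log2 difference was -0.017 (0.031 without rGAL1 2). Of the 27, 6 were separated lower and 4 higher, beside 17.0% and 20.2% of all named genes. None had an unadjusted p under 0.05 (limma). PGK1, a glycolytic kinase often used to report HIF activity, differed by -0.020 (95% interval -0.28 to 0.24), LDHA, which makes lactate, by 0.054 (-0.21 to 0.31), and NDRG1, a stress-induced gene, by -0.062 (-0.36 to 0.24).

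The largest differences among those separated and above the dim level were in DDIT4, TPI1 and LOX. DDIT4, an inhibitor of mTORC1 induced by low oxygen and by ATF4, measured 6.30 and 6.50 in Ctrl and 6.16 and 6.12 in rGAL1 (log2 expression), a difference of -0.26 (SE 0.12) that was -0.15 without Ctrl 2. LOX, which cross-links collagen, differed by -0.17 (SE 0.10). The glycolytic enzyme TPI1 differed by -0.22, by -0.026 without rGAL1 1 and by -0.41 without rGAL1 2.

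BNIP3, the closest relative of BNIP3L and likewise a HIF target, was dim and uneven, at 4.32 and 3.88 in Ctrl and 4.16 and 4.19 in rGAL1. Its log2 difference was 0.076 (SE 0.17), and -0.15 without Ctrl 2, so it gives no direction. Among the HIF machinery, EPAS1, the HIF-2 alpha subunit, differed by 0.023 with overlapping groups, and by 0.077 without rGAL1 2. EGLN1, the oxygen-sensing hydroxylase that is itself a HIF target, differed by 0.15 (SE 0.10), ARNT2 by 0.098 and ARNT, the shared partner of HIF subunits, by 0.057 (0.028 without Ctrl 1). In each of these 3 both rGAL1 arrays lay above both Ctrl arrays, but they were picked from the list for having separated groups. The 8 named genes had a median of 0.040 (0.074 without rGAL1 2). Of them, 3 were separated higher and 0 lower, beside 20.2% and 17.0% of all named genes. None had an unadjusted p under 0.05 (limma). No probe set carried HIF1A or VHL as its only symbol, so neither gene is analysed here.

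Other mitophagy receptors and adaptors lay close to 0, with a median log2 difference of -0.024 over 19 named genes (0.020 without rGAL1 2). Of the 19, 1 was separated lower and 3 higher, beside 17.0% and 20.2% of all named genes. None had an unadjusted p under 0.05 (limma). GABARAP, an ATG8 protein that BNIP3L can bind, measured 8.85 on both Ctrl arrays and 8.72 and 8.70 on the rGAL1 arrays, a difference of -0.14 (SE 0.097). CALCOCO2, an autophagy adaptor, differed by 0.31 (SE 0.13), and by 0.17 without Ctrl 2. FBXL4, a ubiquitin ligase subunit that limits BNIP3L and BNIP3 protein, differed by 0.093, by 0.034 without rGAL1 1 and by 0.15 without rGAL1 2. In the BCL2 family, to which BNIP3L is related through its BH3-like motif, the median over 14 genes was -0.021 (-0.0067 without rGAL1 2). Of the 14, 2 were separated lower and 2 higher, beside 17.0% and 20.2% of all named genes. None had an unadjusted p under 0.05 (limma). BCL2L1, an inhibitor of apoptosis, differed by -0.20 (SE 0.10) and BAD, which promotes apoptosis, by 0.15 (SE 0.11, 0.085 without Ctrl 1). PMAIP1, which also promotes apoptosis, differed by -0.12 and by -0.039 without Ctrl 2.

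**Figure D4:**
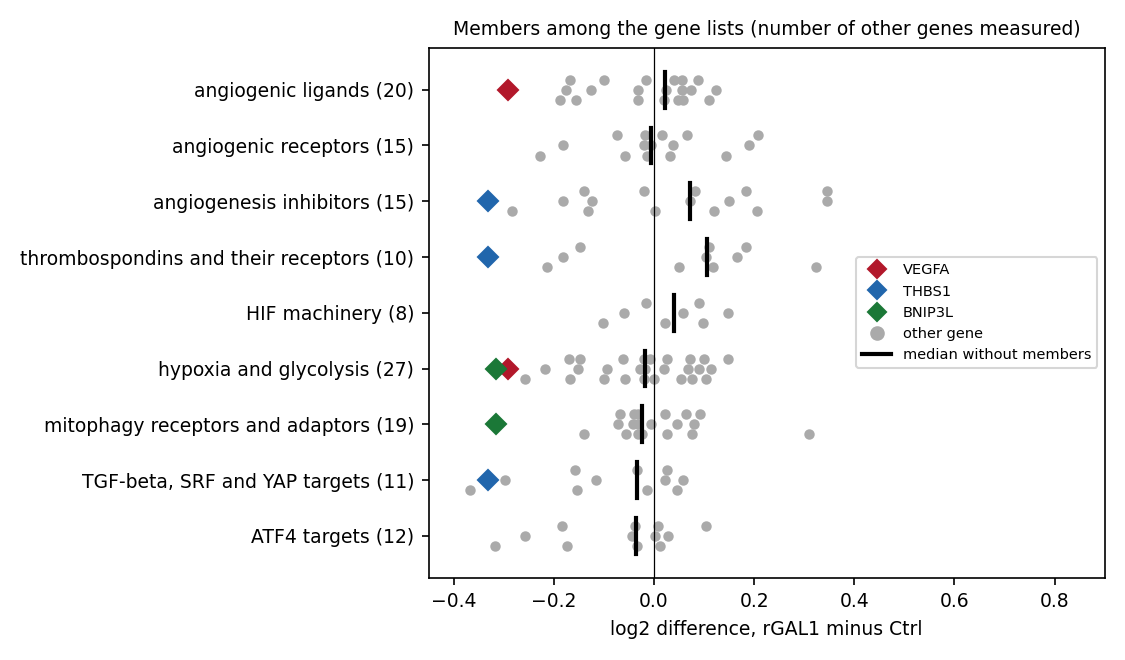
Log2 difference, rGAL1 minus Ctrl (horizontal axis), of VEGFA, THBS1 and BNIP3L (coloured diamonds), of the other named genes in each list (grey points, number in brackets) and the list's median without the 3 genes (black line). VEGFA, THBS1 and BNIP3L lie at the lower end of their lists except THBS1 among TGF-beta, SRF and YAP targets, where ANKRD1 is lower; the medians of the 9 lists drawn, which leave out the BCL2 family and the cell markers, lie between -0.036 and 0.11.

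THBS1 was read beside other genes under TGF-beta, SRF and YAP, which are known to induce it. Of 11 named besides THBS1, 5 were separated lower and 1 higher, beside 17.0% and 20.2% of all named genes. The median log2 difference was -0.033, which is the value of SRF (SE 0.10), and -0.082 without rGAL1 2. It ran from -0.093 to -0.015 under the 9 alternatives tried. A block for the array number cannot move this median, nor can keeping genes above the dim level, since all 11 lie above it. The other alternatives reuse the same arrays, so the kept sign shows no stability. ANKRD1, a YAP target, measured 9.96 and 9.90 in Ctrl and 9.59 and 9.54 in rGAL1 (log2 expression), a difference of -0.37 (SE 0.10). It was the 1 of the 11 at an unadjusted p under 0.05 (limma), a mark reached by 2.98% of named genes. CCN2, connective tissue growth factor, measured 6.81 and 6.95 in Ctrl and 6.68 and 6.49 in rGAL1, a difference of -0.30 (SE 0.12); its other probe set was dim, at 2.63 in Ctrl, and gave -0.061. These are the genes whose upstream windows are printed above. SMAD7, a feedback inhibitor of TGF-beta signalling, differed by -0.16 (SE 0.099), TAGLN by -0.15 (-0.086 without Ctrl 1) and AMOTL2 by -0.12, whereas AXL (0.026) and SRF itself (-0.033) lay near 0. SKIL, the 1 separated higher, differed by 0.057 (SE 0.10), and by 0.019 without Ctrl 1.

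VEGFA is also induced through ATF4, the effector of the integrated stress response. Of 12 named genes in the ATF4 list, which also holds DDIT4, 4 were separated lower and 1 higher, beside 17.0% and 20.2% of all named genes. The median log2 difference was -0.036 (-0.088 without rGAL1 2). TRIB3, a pseudokinase, measured 7.60 and 7.69 in Ctrl and 7.29 and 7.37 in rGAL1, a difference of -0.32 (SE 0.10). It was the 1 of the 12 at an unadjusted p under 0.05 (limma), beside 2.98% of named genes. ATF4 itself differed by -0.18 (SE 0.11), and by -0.12 without rGAL1 1. ASNS (0.0074) and PHGDH (0.012), amino acid enzymes of the same programme, lay near 0.

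Likeness of pattern was measured as the root mean square (RMS) difference between the 4 log2 values of 2 genes, each centred on its own mean over the 4 arrays, among named genes above the dim level. VEGFA and BNIP3L were 0.028 apart, VEGFA and THBS1 0.058, and THBS1 and BNIP3L 0.068, so VEGFA and BNIP3L were the closest of the 3 pairs. Outside the members, the genes nearest to VEGFA were GAGE12H (0.012), PYDC1 (0.014) and ZNF33A (0.017). GAGE12H belongs to a family of near-identical copies whose probes may read one another. Nearest to THBS1 were IL18BP (0.0080), CFAP73 (0.014) and CLPSL1 (0.019), and nearest to BNIP3L were LCN6 (0.013), SQLE (0.014) and BCL2L15 (0.018). The measure rests on 4 arrays and includes the difference between groups on which the members were chosen.

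Cell identity was read from marker genes. Ductal epithelial markers were bright, with KRT18 at 12.4, SOX9 at 10.3, EPCAM at 9.88 and KRT19 at 9.42 in Ctrl on the log2 scale, and KRT7 lower at 5.36. The other probe set of KRT18 was at 9.08 in Ctrl. The 7 named endothelial markers ranged from 3.05 to 6.15 and the 3 fibroblast markers from 2.91 to 5.60 in Ctrl. The mean log2 level of the 6 ductal markers was 9.18 and 9.20 in Ctrl and 9.08 and 9.15 in rGAL1. That of the 4 leukocyte markers was 5.57 and 5.66 against 5.69 and 5.77, so neither list's mean overlapped between groups. Of the ductal markers 3 were separated lower and 1 higher, and of the leukocyte markers 0 and 2, beside 17.0% and 20.2% of all named genes. KRT7 had the lowest difference among the ductal markers, at -0.38 (SE 0.17; -0.16 without rGAL1 1, -0.60 without rGAL1 2). CD68, a lysosomal glycoprotein, had the highest among the leukocyte markers, at 0.39 (SE 0.12). CD14 differed by 0.10 (0.055 without rGAL1 2), CSF1R by 0.076 (-0.046 without rGAL1 2) and LYZ by -0.11 (-0.048 without rGAL1 2). CSF1R and LYZ had overlapping groups, so the leukocyte markers did not all differ alike. The separation of the leukocyte mean rested on CD68, as the mean of the other leukocyte markers overlapped between groups. The part of these lists in the differences of VEGFA, THBS1 and BNIP3L was not tested. The mean level of the endothelial markers was 4.88 and 4.76 in Ctrl and 4.75 and 4.83 in rGAL1, and that of the fibroblast markers 3.91 and 4.01 against 4.08 and 3.90, with overlapping groups. The median log2 differences were -0.050 for the ductal, -0.020 for the endothelial, 0.0044 for the fibroblast and 0.090 for the leukocyte list. Without rGAL1 2 they were -0.057, -0.051, 0.16 and 0.0043 in that order.

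Over all probe sets, the log2 difference between 2 arrays had an SD of 0.30 within Ctrl, 0.29 within rGAL1 and 0.27 to 0.30 when the arrays came from different groups, so like arrays were no closer than unlike ones. The number of arrays limits the precision, and the median SE of a difference was 0.11 for named genes above the dim level.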

How the data were processed

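The authors deposited log2 expression values per probe set for 2 Ctrl and 2 rGAL1 arrays. Per the submitters' processing notes, the tools were RMA, which corrects background, normalizes between arrays and summarises probes, and limma, with their settings unstated. The median log2 value per array lay between 4.69 and 4.72. Of 53617 probe sets, 16098 carry 1 symbol in the platform annotation, covering 14884 genes; all matched a current record by Entrez ID. The brightest probe set stands for a gene with several.

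All probe sets were fitted with limma 3.58.1 in R 4.3.3 (lmFit, eBayes, two-sided, Benjamini-Hochberg over all probe sets, adjusted p under 0.05, no block), and the script was tested on simulated data. The members and the 14 gene lists (252 names, 165 measured, members included) were chosen with earlier results of these data known. Lists are described by counts and medians without the members. Named genes are the members, fixed relatives and partners, up to 3 separated genes above the dim level per list, and the 3 nearest in pattern to each member. Others, such as PGK1, CXCL10, ANGPT2 and TIMP2, were picked for their role or brightness after their values were seen. The labels do not say that equal array numbers mark a shared culture or day, so the numbers were not taken to pair arrays. Array deviations from the group mean correlated between equal numbers at r = -0.048. That value covers all probe sets, dim ones included, so it cannot exclude pairing. Alternatives were each array left out, a replicate block, rGAL1 2 counted as Ctrl, other scalings, filters and variance priors.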

Additional observations from a re-analysis of the deposited data

How the results depend on the processing

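With rGAL1 2 counted as Ctrl, the log2 differences were -0.13, -0.24 and -0.16; the cause was not tested. With each array left out they ran from -0.34 to -0.25, from -0.38 to -0.29 and from -0.35 to -0.28; since the genes were chosen with separated groups, these keep their sign by construction and show no stability. Centring each array on its median gave -0.28, -0.32 and -0.30, and quantile normalization -0.30, -0.34 and -0.32; the block, the filters and the prior cannot move a difference. The change of VEGFA relative to THBS1 was above 0 in 2 and below 0 in 2 of the fits that leave out an array, and 0.10 with rGAL1 2 counted as Ctrl. No probe set passed an adjusted p under 0.05 in any fit. The count at an unadjusted p under 0.05 was 2807, and it was 1641 among probe sets above the dim level and 1006 among those with 1 symbol, where fewer were tested. With the replicate block it was 2548, with SEs of 0.12 for the 3 genes. The mean of several probe sets per member was not run, as each has 1. Among the list medians, those of the ligands, receptors, hypoxia, mitophagy, endothelial and fibroblast lists changed sign under at least 1 of 9 alternatives (3, 5, 2, 3, 1 and 2). The 4 arrays limit the precision, and dim probe sets give no firm value.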
